A study of Mus musculus with 2 samples.

Results

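The miR-148 and miR-152 family of mouse consists of miR-148a, miR-148b and miR-152, and its members were taken by name from the deposited count tables, with both arms of each hairpin. This gave 3 hairpins and 6 mature arms of the 1886 miR entries listed. The family was selected on the read counts of these 2 libraries, which were known when it was proposed, so its levels are given as a description. Small RNA was sequenced from sperm of wild-type C57BL/6J mice aged 3 months in 2 libraries, which the labels call naive and the study's methods call independent biological replicates. There was 1 group and no treated, mutant or somatic sample, so no test between conditions was possible and errors are the SD over 2 libraries. The number of mice behind each library is not given in the sources used here, and the names of the deposited tables carry a string that reads as after treatment, which the labels do not explain. Sperm was left to swim out of the opened epididymis into warm buffer, and the pellet was treated with a detergent buffer to break other cells.

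A miR is cut from a hairpin precursor as a short duplex of a 5p and a 3p arm, of which 1 arm is usually kept by an Argonaute protein while the other is degraded. The retained arm recognises messenger RNAs mainly through its seed, the bases 2 to 8 from its 5′ end, so miRs with the same seed can share targets. miR-148a is known as an abundant miR of liver, and the DNA methyltransferase gene Dnmt1 is a known target of the family. Mature sperm carry miRs made in the testis, and they also take up small RNA from vesicles of the epididymis.

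The 3p arms are shown first because they carry nearly all reads of the family and because their seed, in capitals, defines it. The sequences were taken from RefSeq on the mouse build GRCm38.p6, where all 6 arms were matched by name.
miR-148a-3p: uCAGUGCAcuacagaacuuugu
miR-148b-3p: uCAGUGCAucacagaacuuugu
miR-152-3p: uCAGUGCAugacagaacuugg
All 3 arms have the seed CAGUGCA after a first U. Counted from 1 at the 5′ end, with the base of the first-named miR first, miR-148a-3p and miR-148b-3p differ by C9U and U10C. miR-148a-3p and miR-152-3p differ by C9U, U10G and U20G, and miR-148b-3p and miR-152-3p by C10G and U20G. The differences therefore begin just after the seed.

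The 5p arms are less alike, and they are shown with the same bases in capitals.
miR-148a-5p: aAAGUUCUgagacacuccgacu
miR-148b-5p: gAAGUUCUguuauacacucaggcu
miR-152-5p: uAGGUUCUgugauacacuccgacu
miR-148a-5p and miR-148b-5p share the seed AAGUUCU, while miR-152-5p has AGGUUCU. Compared without gaps from the first base, miR-148a-5p matched miR-148b-5p at 13 of 22 bases, against 20 of 22 bases for the 3p arms of the same hairpins. Among the listed entries with a RefSeq sequence, no miR outside the family carried any of these 3 seeds.

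The near identity of the members matters for counting, since a read that fits several miRs cannot be assigned to 1 of them alone. The 12 joined entries, which name several miRs each, include no member of the family. The longest run of bases that a 3p arm shared with another mature miR was 12 bases, between miR-148a-3p and miR-148b-3p, and the longest run for a 5p arm was 11 bases. The authors kept reads of at least 15 bases. A perfect read of that length from any of the 6 arms therefore matched none of the other 1678 mature miRs it was compared with. This does not hold for reads that were mapped with a mismatch, and which mapping step gave the counts is not stated.

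The 3 hairpins lie at separate places in the genome. They are shown with both mature arms in capitals, 5p before 3p, because the results below turn on the balance between these arms.
Mir148a: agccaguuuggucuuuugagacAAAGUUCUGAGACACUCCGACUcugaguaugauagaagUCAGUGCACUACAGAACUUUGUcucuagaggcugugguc
Mir148b: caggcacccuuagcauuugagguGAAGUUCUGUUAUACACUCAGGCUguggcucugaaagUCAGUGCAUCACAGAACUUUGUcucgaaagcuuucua
Mir152: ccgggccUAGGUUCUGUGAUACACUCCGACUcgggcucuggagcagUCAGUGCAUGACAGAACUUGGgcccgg
Mir148a (ENSMUSG00000065505.1) lies on the minus strand at chr6:51269812-51269910, within no other gene of the GENCODE annotation of GRCm38. Its nearest protein-coding neighbours are Nfe2l3 at 162.8 kb and Npvf at 615.4 kb. Mir148b (ENSMUSG00000065560.1) lies on the plus strand at chr15:103285125-103285221, in intron 1 of Copz1 on the same strand. Mir152 (ENSMUSG00000065515.1) lies on the plus strand at chr11:96850393-96850465, in intron 1 of Copz2 on the same strand. Copz1 and Copz2 encode the zeta subunits of coatomer, the coat of vesicles of the Golgi apparatus. Apart from the host genes, the nearest coding gene on the lower-coordinate side of Mir148b is Nfe2, at 26.72 kb, and that of Mir152 is Nfe2l1, at 20.42 kb. On the other side, Gpr84 lies at 23.01 kb from Mir148b, nearer than Nfe2, and Cdk5rap3 at 56.96 kb from Mir152. Each of the 3 hairpins thus has a gene of the NFE2 family of transcription factors as its coding neighbour on 1 of its sides. In structures predicted with RNAfold, 17 of the 22 bases of miR-148a-3p were paired to the 5p arm, as were 15 of 22 bases of miR-148b-3p and 18 of 21 bases of miR-152-3p.

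The family took 64060 of 4049599 miR reads in replicate 1 and 60338 of 5648067 in replicate 2. Here abundance is given as CPM, the reads of a miR per 1000000 reads on named miRs of the library. The family reached 15819 CPM in replicate 1 and 10683 CPM in replicate 2, or 13251 ± 3632 CPM (SD, n = 2 libraries). As a share of miR reads, this was 1.58% (Wilson 95% interval 1.57% to 1.59%) and 1.07% (1.06% to 1.08%). The gap between the libraries exceeded these intervals many times over, but they cover counting error only and not variation between preparations. The reads carry no molecular identifiers, so copies made in amplification were counted as separate reads. A count of 3 reads, taken as the upper bound for an entry without reads, corresponds to 0.741 CPM in replicate 1 and 0.531 CPM in replicate 2.

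All 6 arms had at least 1 read in each library, which was the case for 20% of the 1886 listed entries. With at least 10 reads in each library 5 arms remained, against 12.9% of all entries, and with at least 100 reads 3 arms remained, against 6.52%. The arm lost at 10 reads was miR-148b-5p. As the family was chosen with its levels known, nothing is read from these counts.

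miR-148a-3p dominated the family. It had 62781 reads or 15503 CPM in replicate 1 and 59104 reads or 10464 CPM in replicate 2, and it ranked 5th and 6th among all entries. Its paralog miR-148b-3p had 702 reads or 173 CPM in replicate 1 and 482 reads or 85.3 CPM in replicate 2. miR-152-3p had 92 reads or 22.7 CPM and 138 reads or 24.4 CPM. The 3 arms with 1 seed therefore spanned levels from the most abundant miRs of the libraries down to ranks of 132 and 120, and their ranges over the 2 libraries did not overlap.

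The reads of miR-148a-3p outnumbered those of miR-148b-3p by a ratio of 89.4 in replicate 1 (95% counting interval 83.0 to 96.3) and of 123 in replicate 2 (112 to 134). Against miR-152-3p the ratio was 682 (556 to 837) and 428 (362 to 506). These ratios stand within a library and do not depend on its total. miR-148a-3p thus made up 98.8% and 99.0% of the 3p reads of the family, or 98.9% ± 0.149 (SD, n = 2). miR-148b-3p made up 1.10% (interval 1.03% to 1.19%) and 0.807% (0.738% to 0.882%), and miR-152-3p made up 0.145% (0.118% to 0.177%) and 0.231% (0.196% to 0.273%). The shares of both minor members lay outside each other's intervals in the 2 libraries, with miR-148b-3p lower and miR-152-3p higher in replicate 2.

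The 5p arms followed another order. miR-148a-5p had 429 reads or 106 CPM in replicate 1 and 526 reads or 93.1 CPM in replicate 2. It stood near the level of miR-148b-3p, and the ranges of these arms over the libraries overlapped. Its ratio to miR-148b-3p was 0.611 (0.542 to 0.689) in replicate 1 and 1.09 (0.964 to 1.23) in replicate 2. It was thus lower in replicate 1, while the interval of replicate 2 included equal counts. These arms could therefore not be ordered over both libraries. miR-152-5p had 48 reads or 11.9 CPM and 64 reads or 11.3 CPM, whereas miR-148b-5p was counted just 8 times in replicate 1, at 1.98 CPM (1.001 to 3.90), and 24 times in replicate 2, at 4.25 CPM (2.86 to 6.32). Among the 5p arms, miR-152 was therefore above miR-148b, by a ratio of 6.00 (2.84 to 12.7) and 2.67 (1.67 to 4.26). Among the 3p arms it was below it, as miR-148b-3p exceeded miR-152-3p by a ratio of 7.63 (6.14 to 9.48) and 3.49 (2.89 to 4.22). By mean CPM the full order was miR-148a-3p, miR-148b-3p, miR-148a-5p, miR-152-3p, miR-152-5p and miR-148b-5p, and apart from the second and the third no neighbours in this order had overlapping ranges.

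**Figure D1:**
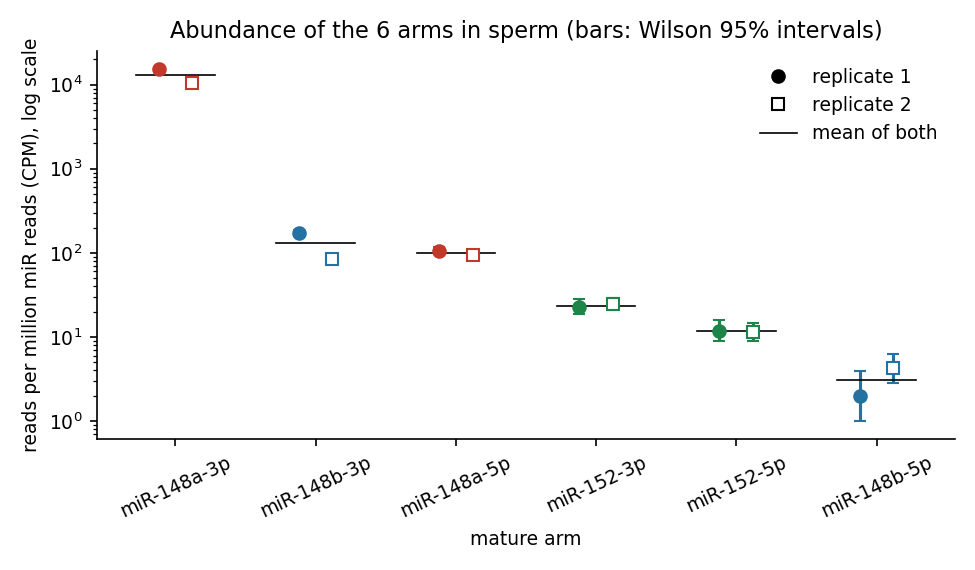
Abundance of the 6 mature arms in each library, in CPM on a log axis, with Wilson 95% intervals of the counts as bars and the mean of both libraries as a line. miR-148a-3p lies at 15503 and 10464 CPM, and the least abundant arm, miR-148b-5p, at 1.98 and 4.25 CPM.

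Arm use differed among the 3 hairpins. Of the 63210 miR-148a reads of replicate 1, 99.3% fell on the 3p arm (Wilson interval 99.3% to 99.4%), as did 99.1% of the 59630 reads of replicate 2 (99.0% to 99.2%). For miR-148b, with 710 and 506 reads, the 3p share was 98.9% (97.8% to 99.4%) and 95.3% (93.0% to 96.8%). For miR-152, with 140 and 202 reads, it was only 65.7% (57.5% to 73.1%) and 68.3% (61.6% to 74.3%). The mean was 99.2% ± 0.144 for miR-148a, 97.1% ± 2.56 for miR-148b and 67.0% ± 1.84 for miR-152 (SD, n = 2 each). The gap between miR-152 and the other hairpins was far larger than the spread between the libraries. The ranges of miR-148a and miR-148b over the libraries did not overlap either, with miR-148b lower. Their counting intervals overlapped in replicate 1 but not in replicate 2. The share of miR-148b rests on 8 and 24 reads of its 5p arm.

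For comparison, 119 hairpins had both arms listed as entries of their own and at least 100 reads in both libraries together. All 3 family hairpins had more reads on the 3p arm, which was the case for 43.7% of the 119. The more abundant arm held a median of 99.4% of the pooled reads over these hairpins, and it held over 90% in 2 of the 3 family hairpins and in 83.2% of all. miR-148a and miR-148b, at 99.2% and 97.4% of pooled reads, lay near this median. miR-152, at 67.3%, was among the least one-sided hairpins, as only 7 of the 119 had a lower share on their more abundant arm. With 342 reads in all, miR-152 also had far fewer reads than miR-148a.

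**Figure D2:**
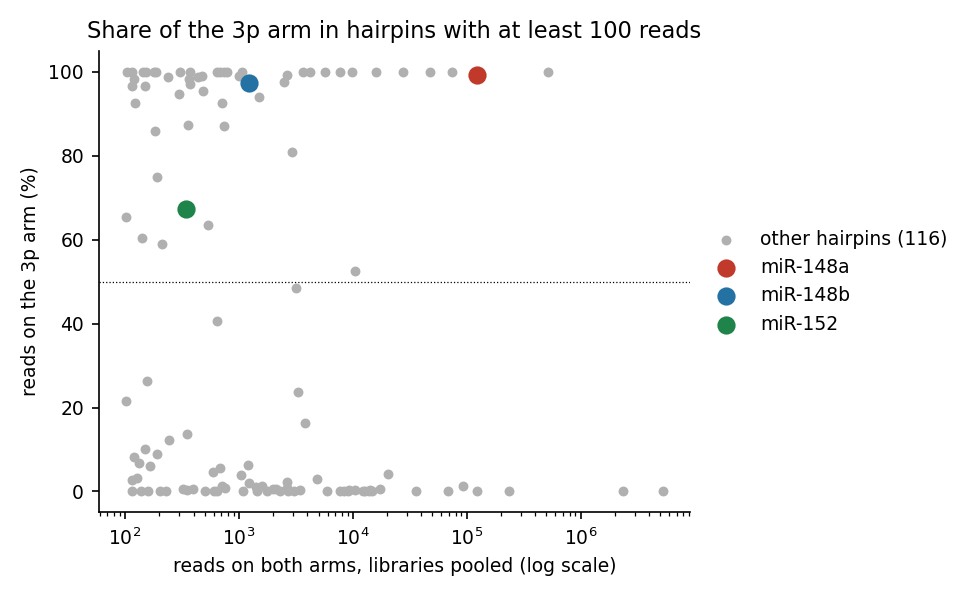
Share of the reads of a hairpin on its 3p arm in percent, with both libraries pooled, against the reads on both arms on a log axis, for the 119 hairpins with at least 100 reads. Most hairpins sit near 0% or 100%, as do miR-148a at 99.2% and miR-148b at 97.4%, while miR-152 sits at 67.3%.

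The arms also differ in their first base, a property known to affect how an arm is kept by Argonaute. The 3p arms of all 3 hairpins start with U. The 5p arms start with A in miR-148a and G in miR-148b, but with U in miR-152. Of 97 hairpins with at least 100 reads and a sequence for both arms, 53 had U at the start of the more abundant arm only, as miR-148a and miR-148b do, and 10 had U at the start of both arms, as miR-152 does. The more abundant arm held a median of 99.7% of reads in the first class and of 97.9% in the second, with ranges from 59.3% to 100% and from 67.3% to 100%. In 27 further hairpins no arm started with U, and in 7 the less abundant arm only. Their medians were 99.9% and 93.6%, with ranges from 59.0% to 100% and from 60.3% to 100%. The class without U thus had the highest median. The classes thus overlapped nearly completely, and miR-152 was the lowest of the 10. This division was chosen after the values were seen and was not tested.

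Summed by seed, the 3p arms of the family formed one of the larger groups of miR reads in these sperm. A RefSeq sequence was matched to 1608 of the 1886 entries, which held 93.4% of the miR reads and 1344 different seeds. The seed CAGUGCA took 1.57% of miR reads in replicate 1 and 1.06% in replicate 2, or 1.31% ± 0.362 (SD, n = 2), and ranked 4th and 5th among the seeds. The groups led by miR-10b-5p, miR-191-5p and the let-7 member let-7f-5p were above it in both libraries. The group of miR-182-5p, with 1.36% and 1.22%, was below it in replicate 1 and above it in replicate 2, so the order of these groups was within the spread of the replicates. Of the entries without a matched sequence, miR-143-3p exceeded the family. The family's group rested on miR-148a-3p for 98.9% of its pooled reads. This was not particular to the family. The leading miR held 98.8% in the group of miR-26a-5p, with 2 entries, and 96.0% in that of miR-30a-5p, with 4 entries. It held less in the let-7 group, at 42.1% with 11 entries, and in that of miR-10b-5p, at 69.5% with 2 entries. Leaving out miR-148a-3p, the other 5 arms together reached 316 CPM in replicate 1 and 218 CPM in replicate 2. The seed shared by miR-148a-5p and miR-148b-5p ranked 44th, and that of miR-152-5p ranked 98th.

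**Figure D3:**
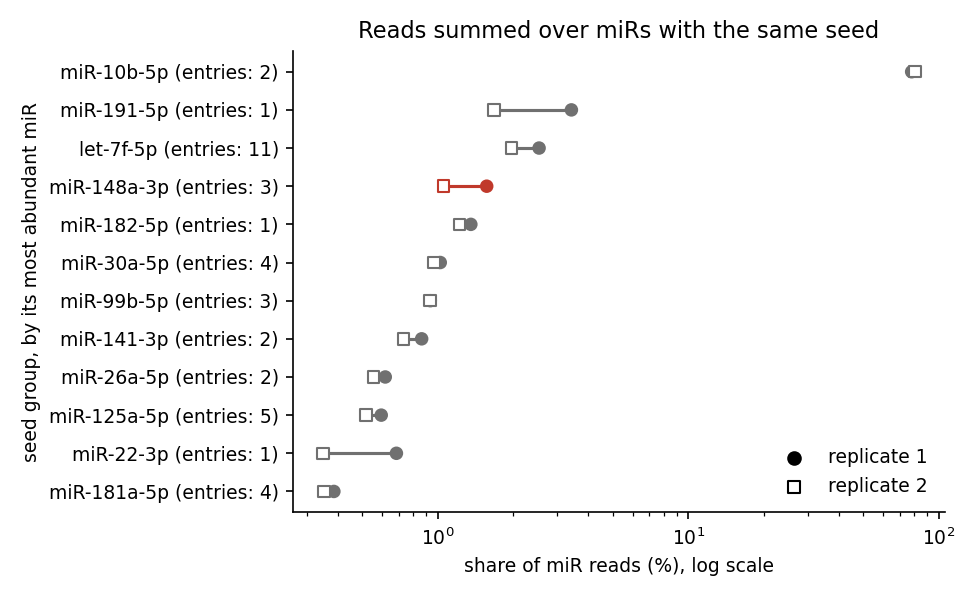
Share of miR reads, in percent on a log axis, of the 12 most abundant groups of entries with the same seed, each named by its most abundant miR with the number of listed entries, for replicate 1 (filled circles) and replicate 2 (open squares). The group led by miR-148a-3p, in red, lies at 1.57% and 1.06%.

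The libraries differed in the level of the family, and the arms did not differ alike. On the scale of log2(CPM + 1), the difference of replicate 2 from replicate 1 was -0.57 for miR-148a-3p and -1.01 for miR-148b-3p, while it was 0.10 for miR-152-3p. For the 5p arms it was -0.18 for miR-148a-5p, 0.82 for miR-148b-5p and -0.06 for miR-152-5p. Counting alone gave a standard error of 0.0083 for miR-148a-3p and 0.085 for miR-148b-3p. It was 0.19 for miR-152-3p, 0.094 for miR-148a-5p, 0.59 for miR-148b-5p and 0.28 for miR-152-5p, so the signs of these arms are uncertain. Over the 323 entries with at least 10 reads in both libraries together, the median difference was -0.25, with a middle range from -0.74 to 0.14, and 65.9% of entries were lower in replicate 2. Of the 6 arms 4 were lower in replicate 2, with a median of -0.12. On this scale miR-148b-3p was more than 2-fold apart between the libraries and the other 5 arms were not, against 19.8% of all entries. The low count of miR-148b-5p makes its call depend on the pseudocount, as its log2 difference was 1.07 with a pseudocount of 0.1.

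These differences depend on the scaling. After TMM normalization, which sets the bulk of entries equal, the median over all entries was 0.042 and the differences were -0.24 for miR-148a-3p, -0.69 for miR-148b-3p and 0.42 for miR-152-3p. Those of miR-148a-5p and miR-152-5p turned positive, at 0.14 and 0.24, and that of miR-148b-5p was 1.06. With TMM, miR-148b-5p was thus past a 2-fold difference and miR-148b-3p was not. Between the arms of 1 hairpin the scaling enters only through the pseudocount. The 5p arm differed from the 3p arm in its log2 difference by 0.38 for miR-148a, by 1.83 for miR-148b and by -0.16 for miR-152. Among 68 hairpins with at least 10 reads on each arm, the median size of this gap was 0.59, and 64 of them had a smaller gap than miR-148b. The gap of miR-148b rests on the 8 and 24 reads of its 5p arm, with a standard error of 0.60 from counting alone.

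**Figure D4:**
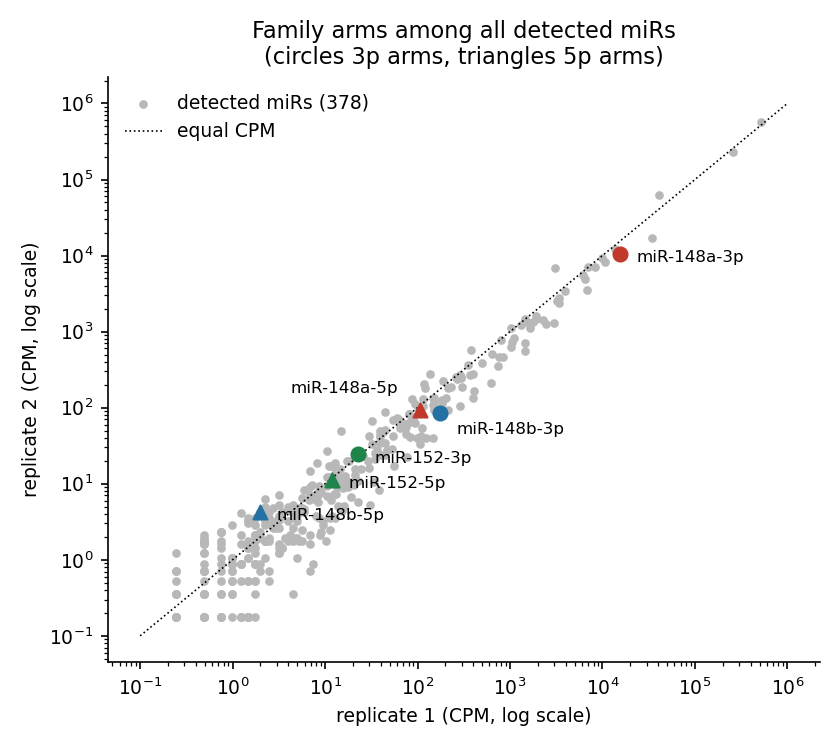
CPM in replicate 2 against CPM in replicate 1, both on log axes, for the 378 entries with at least 1 read in each library, with 3p arms of the family as circles and 5p arms as triangles. miR-148a-3p and miR-148b-3p lie below the line of equal CPM, and miR-152-3p lies just above it.

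The entries with the most similar levels were found by the distance of log2(CPM + 1) over the 2 libraries among 377 other detected entries, which with 2 values per miR compares little more than abundance. Nearest to miR-148a-3p were miR-182-5p (distance 0.30), let-7f-5p (0.63) and miR-30a-5p (0.68). miR-148b-3p was nearest to miR-92a-3p (0.11), miR-872-5p (0.24) and miR-425-5p (0.34), and miR-152-3p to miR-149-5p (0.05), miR-1839-5p (0.13) and miR-24-2-5p (0.18).

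As the family is also known from somatic tissues, miRs that mark other cells were summed in the same libraries. The liver marker miR-122 had 2 reads on its 5p arm in replicate 1 and none in replicate 2, where a count of 0 allows up to 0.531 CPM. Of the pancreas list 1 of 8 entries was detected, miR-375-3p with 1906 and 1474 CPM, and the entries of miR-216a, miR-216b and miR-217 had 0 reads. The germ cell list, led by miR-34c-5p, had 14 of 24 entries detected and took 0.568% and 0.231% of the miR reads of replicates 1 and 2, and the epithelial list, led by miR-141-3p, had 12 of 14 detected and took 1.08% and 0.886%. The log2 difference of replicate 2 from replicate 1 was -1.30 for the germ cell list (-0.97 with TMM). For the epithelial list it was -0.29 (0.043 with TMM). For miR-375-3p, the only entry of the pancreas list with reads, it was -0.37 (-0.04 with TMM). The other way went the list of smooth muscle and stroma, at 0.60 (0.93 with TMM), and the blood list, at 1.12 (1.45 with TMM). The median over all entries was -0.25. The list of smooth muscle and stroma, led by miR-143-3p, had 8 of 9 detected and took 4.13% and 6.26%. The blood list, led by the joined entry of miR-486b-5p and miR-486a-5p, had 9 of 12 detected and took 0.333% and 0.722%. Both sums rest mostly on the leading entry. In replicate 1 it had 165421 of 167378 reads of the list of smooth muscle and stroma, and 12569 of 13471 reads of the blood list. The leading entry of the epithelial list had 33874 of 43786 reads. Single entries did not all go with the sum of their list. In the blood list, the log2 difference was 0.99 for miR-451a, but 0.06 for miR-150-5p and -0.65 for miR-223-3p. In the epithelial list, it was -0.71 for miR-200c-3p but 0.99 for miR-205-5p. The part of these cells in the family's levels was not tested. In bulk RNA, fewer cells of a type and less RNA per cell cannot be told apart.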

How the data were processed

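Small RNA of 2 sperm libraries was sequenced after TruSeq preparation. The authors trimmed reads with cutadapt (version 1.8.1 in the submitters' processing notes), kept reads of at least 15 bases and mapped them with Bowtie 1.1.2, first to miR and piRNA sequences without mismatches. The notes also name HTSeq and the builds mm10 and GRCm38. The authors deposited whole-number read counts per mature miR, without normalization, for each library. The miR annotation release and the step that gave the counts are not given in the sources used here. Of each table, 5 summary entries that name no miR were left out of the totals. The only one above 0, reads assigned to no miR, made up 38.1% of all listed reads in replicate 1 and 26.3% in replicate 2.

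CPM was computed from 4049599 and 5648067 miR reads. Wilson 95% intervals cover counting error only, and intervals of read ratios used the normal approximation on the log scale. The pseudocount was 1 CPM. TMM (edgeR 4.0.16) and DESeq2 1.42.0 size factors in R 4.3.3 served as alternative scalings only. Hairpins were folded with RNAfold 2.7.2, and intervals came from scipy 1.17.1 under Python 3.11.15. The computations were tested on simulated data. The members, lists and rules were chosen with earlier results of these data known. Named were the 6 arms, miRs with their seeds, the 3 nearest detected miRs of each 3p arm, miR-10b-5p, and the leading miR of each marker list (liver, pancreas, blood, smooth muscle and stroma, epithelium, germ cells). Genes that neighbour the hairpins and miRs that lead other seed groups were named after their values were seen.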

Additional observations from a re-analysis of the deposited data

How the results depend on the processing

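The denominator sets the level. As CPM of all reads in the tables, unassigned reads included, the family had 8829 CPM, miR-148a-3p 8650 CPM and miR-152-3p 16.0 CPM. With miR-10a and miR-10b left out of the denominator, the family had 63150 CPM, miR-148a-3p 61876 CPM, miR-148b-3p 611 CPM and miR-152-3p 114 CPM. Mean levels under TMM and DESeq2 scaling stayed within the SD, but since they raise 1 library as they lower the other, the means could hardly move. The log2 difference of the family between replicates, -0.57, was -0.24 with TMM, -0.19 with DESeq2, -0.31 with all reads as denominator and -0.40 without miR-10a and miR-10b. Under the first 3 of these, miR-148a-5p changed sign, to 0.14, 0.19 and 0.065. miR-152-5p changed sign under all 4, to 0.24, 0.29, 0.17 and 0.10. The median over all entries became 0.042 with TMM and 0.082 with DESeq2. miR-152 made up 0.277% of the family's reads with both arms summed, against 0.188% of 3p reads. Of all values recomputed with both libraries, 50 kept within the error (for counts, within 1.5 times), 25 moved by more and 9 changed sign. With at least 100 reads in each library 3 arms were detected, and the other minimums and thinning to equal depth left between 5 and 6 arms.

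With each library alone, the family had 10683 to 15819 CPM, miR-148a-3p 10464 to 15503, miR-148b-3p 85.3 to 173 and miR-152-3p 22.7 to 24.4. Of 2 values each is within 1 SD of their mean by construction, so nothing about stability follows. The difference between replicates needs both libraries. No paired analysis was possible because there is 1 group. The 5p arm of miR-148b had at most 24 reads in a library, which limits every value that rests on it.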
